A study of Rattus norvegicus with 26 samples.

Results

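Retinoid receptors, binding proteins and enzymes were followed here in rat stem cells during smooth muscle differentiation. The group held 9 named genes, *Rara*, *Rarb*, *Rarg*, *Rxra*, *Crabp1*, *Crabp2*, *Aldh1a1*, *Aldh1a2* and *Stra6*, among the 35287 gene names carried by the array. Each was read from the probe whose gene name equalled the symbol, and from the brightest such probe where there were several. This gave 8 genes with a probe, since no probe carried the name *Rarg*. *Aldh1a2* was not well above background on any of 26 arrays (log2 signal 0.31 to 0.54), so 7 genes were tested, among 24442 tested probes of 41012.

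Retinol travels in blood on retinol binding protein and transthyretin and can enter cells through the membrane receptor STRA6. Retinol and retinaldehyde dehydrogenases, among them ALDH1A1 and ALDH1A2, convert it to retinoic acid, which CRABP1 and CRABP2 bind in the cell. Retinoic acid activates the nuclear receptors RARα, RARβ and RARγ, which bind DNA as dimers with RXR, while CYP26 enzymes degrade it, and in smooth muscle cells it is known to affect proliferation and differentiation.

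The cells were multipotent adult progenitor cells (rMAPC), Oct4-expressing clones grown from Fischer rat bone marrow of female animals. Clone Cl19 came from animals aged 3 weeks and clone 3c3 from embryonic stage E18, and both were kept for 6 days in basal rMAPC medium with TGF-β and PDGF-BB. The paper describes this medium as free of serum. The series held no culture kept without these factors over the same days. Time in culture, medium and factors therefore cannot be told apart in the changes from day 0. RNA was taken on days 0, 2, 4 and 6, with 3 arrays for each clone and day, and each array carried 1 sample labeled with Cy3. The comparison group was purchased primary smooth muscle RNA on 2 arrays, which the labels describe as rat aortic RNA and the methods as RNA of primary smooth muscle cells. Each line was thus 1 clone from 1 age, so clone and age of the animals cannot be told apart.

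The 4 days of a replicate lay side by side on 1 slide. Slides 1 to 3 held Cl19, slides 4 to 6 held 3c3 and slide 7 held the primary arrays, and each of these 3 sets was scanned on a day of its own. Slide, scan day and group therefore cannot be told apart where levels of the 2 lines, or of the lines and primary cells, are compared, whereas changes between days were measured within slides. Days 0, 2, 4 and 6 always lay at positions 1, 2, 3 and 4 of a slide, so day and position cannot be told apart. Between 43.2% and 61.4% of features were well above background on an array, with the low end at 3c3 replicate 3 on day 6 (43.2%) and primary replicate 1 (43.6%), and 0 features were saturated. The array labeled Cl19 replicate 1 of day 2 stood apart from its group. It differed from the 3c3 arrays of day 2 by a root mean square of 0.382, 0.538 and 0.428 on the log2 scale, and from the other Cl19 arrays of day 2 by 0.917 and 0.876. Differences from day 0 on day 2 of Cl19 are given with and without it for the 7 tested genes.

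Marker genes were read on the same arrays. The mean level of 8 smooth muscle markers went from 6.40 on day 0 to 10.02 on day 6 in Cl19 and from 6.44 to 9.36 in 3c3, and was 11.46 in primary cells, where 8 of 8 were above background on both arrays. *Myocd*, 1 of the 8, did not share the rise. Its means on days 0 and 6 were 1.88 and 1.92 in Cl19 and 2.47 and 1.27 in 3c3. It was above background on at most 1 array of each of these groups, and read 7.04 in primary cells. The mean of 7 markers of undifferentiated rMAPC went from 12.06 to 8.81 in Cl19 and from 12.33 to 10.89 in 3c3, and was 5.10 in primary cells, with 4 of 7 above background. On day 6 *Tagln* was the brightest smooth muscle marker in both lines and *Foxa2* the brightest of the undifferentiated list, from 13.27 to 13.93 in Cl19. *Pou5f1* (Oct4) went from 10.28 to 1.13 in Cl19, above background on 1 of 3 arrays of day 6, and from 11.53 to 7.42 in 3c3, above it on 3 of 3. Markers of other cell types moved too. A list of 6 visceral endoderm or hepatocyte genes had a mean of 2.67 on day 0 and 8.12 on day 6 in Cl19, and of 2.62 and 7.81 in 3c3, with 5 of 6 genes above background on day 6 and *Alb* below it on every array. *Hnf4a*, 1 of those 5, read 4.30 and 4.41 on these days in Cl19 and 4.38 and 4.48 in 3c3, and 4.71 in primary cells. In primary cells 5 fibroblast markers averaged 10.76, with *Col1a1* the brightest, against 5.12 in Cl19 and 2.58 in 3c3 on day 6. Their means on day 0 were 1.75 and 1.89, and *Col1a1* went from 6.00 to 13.26 in Cl19 and from 6.01 to 9.53 in 3c3. In Cl19 *Lum* (7.67) and *Dcn* (2.97) were above background on day 6 and not on day 0, while *Col3a1* and *Thy1* lay below it on both days, as did these 4 genes in 3c3. The means of 4 epithelial markers went from 11.95 to 14.07 in Cl19 and from 11.89 to 13.63 in 3c3 and were 5.18 in primary cells, and 6 endothelial markers went from 4.92 to 2.68 and from 4.29 to 4.34. Lists of 5 blood and 5 adipocyte markers had means of 1.33 to 4.19 in both lines on days 0 and 6 and in primary cells. Single members lay far from these means. *Lyz2* went from below background (0.45 in Cl19 and 0.90 in 3c3) to 5.19 and 4.96 on day 6. Primary cells read 9.65 for *Cd14*, 5.11 for *Ptprc* and 10.42 for *Cidea*, while 2 of the blood and 4 of the adipocyte markers lay below background there. What part cells of these types had in the values below was not tested.

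Values below are log2 signals after quantile normalization over all arrays. Groups were compared with limma, and a gene was called when the p-value, adjusted by the Benjamini-Hochberg method over all 24442 probes, was under 0.05. The methods speak of biological replicates, but neither they nor the labels say whether the arrays of a group came from separate cultures. Each p-value thus sets a difference against the variation between arrays of a group, estimated over all groups. The slide was not part of this fit and was tried as a block. Where a group lay below background on any of its arrays, a fold is given as "at least", computed after raising each value of the dim group to the lowest signal that was well above background on its array, and no fold is given where that bound was under 1 or both groups lay below background. Normexp, tried as another background correction, adds an offset of 50 to every signal, so its log2 changes of dim genes are smaller by construction. The 6 comparisons with day 0 share the day 0 arrays within a line, and the 4 comparisons with primary cells share the primary arrays.

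By day 6 both lines had less *Stra6* and more *Crabp2* RNA than on day 0, while *Crabp1* and *Rxra* were called higher in Cl19 but not in 3c3, and *Rara* and *Aldh1a1* in 3c3 but not in Cl19. Of these last 4 genes, *Crabp1* passed the test of a difference between lines on that day (adjusted p = 0.041), but not with no filter on dim probes (adjusted p = 0.070). Its call was also lost with scaling to the 75th percentile, the deposited values and dim values raised to the floor. The same held without Cl19 replicate 3 or 3c3 replicate 1, 2 or 3. *Rara* passed only with the slide as a block (adjusted p = 0.047), and *Aldh1a1* only without 3c3 replicate 1 (-2.34, adjusted p = 0.0032). In bulk RNA, fewer cells expressing a gene and less RNA per cell cannot be told apart. In Cl19, 3 of 7 genes were called on day 2 (2 higher and 1 lower), against 22.6% of all tested probes, and their median change was 0.27 against -0.07 over all probes. On day 4 there were 4 of 7 (3 higher, 1 lower) against 47.3% of all probes, with medians of 0.65 and -0.16. On day 6 there were again 4 of 7 (3 higher, 1 lower) against 52.2%, with medians of 0.98 and -0.20. The members' share in Cl19 was thus near or above that of all probes at each day.

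In 3c3, 2 of 7 genes were called on day 2, both higher, against 19.1% of all probes, with a median of 0.10 against -0.07. Day 4 gave 5 of 7 (3 higher, 2 lower) against 37.0%, with medians of -0.03 and -0.16. Day 6 gave 4 of 7 (3 higher, 1 lower) against 48.2%, with medians of 0.72 and -0.21. Over the 4 days together, 5 of 7 genes changed in Cl19 against 54.3% of all probes, and 5 of 7 in 3c3 against 50%. These were *Rxra*, *Crabp1*, *Crabp2*, *Aldh1a1* and *Stra6* in Cl19, and *Rara*, *Rarb*, *Crabp2*, *Aldh1a1* and *Stra6* in 3c3. The area method of the study's methods compares the area between each profile and its day 0 level with that of noise profiles. It called 2 in Cl19 (*Crabp1* and *Stra6*) and 1 in 3c3 (*Aldh1a1*). No share of all probes is given for that method, so its counts are not set against one. Some of the limma counts were lower without 1 replicate. Without Cl19 replicate 2 the count of Cl19 on day 2 was 0. The count of 3c3 on day 2 was 1 without its replicate 1, 2 or 3, and that on day 4 was 3, 3 and 1 without replicates 1, 2 and 3. Over time, 3 were called in Cl19 without its replicate 1, and 2 and 3 in 3c3 without its replicates 1 and 3.

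**Figure D1:**
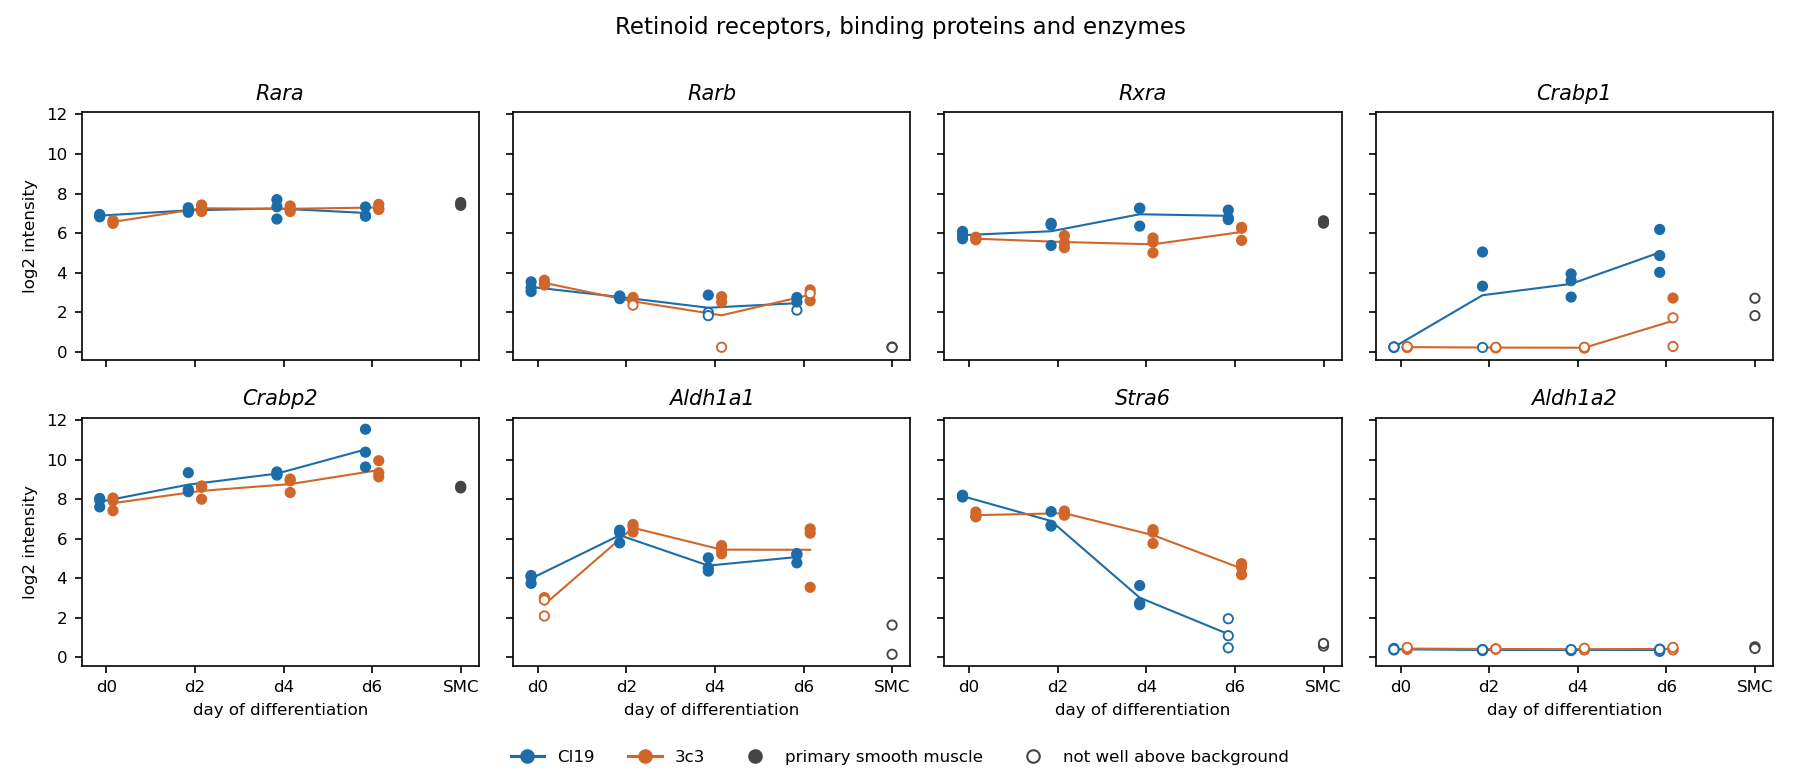
Log2 signal (vertical axis) of the 7 tested genes and *Aldh1a2* on each array by day of differentiation (horizontal axis) in Cl19, in 3c3 and in primary smooth muscle cells. Points are arrays, open where the probe was not well above background, and lines join group means, such as the course of *Stra6* from 8.17 to 1.18 in Cl19 and from 7.20 to 4.50 in 3c3.

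*Rara*, the retinoic acid receptor α, was above background on all 26 arrays. In 3c3 it read 6.63, 6.49 and 6.58 on day 0, 7.42, 7.09 and 7.25 on day 2, 7.22, 7.09 and 7.37 on day 4, and 7.19, 7.24 and 7.45 on day 6. All 9 arrays of later days lay above the 3 of day 0, and the later days overlapped each other. The rise was 0.68 on day 2 (adjusted p = 0.013, limma), 0.66 on day 4 (adjusted p = 0.0089) and 0.72 ± 0.19 (SE) on day 6 (adjusted p = 0.0032), or 1.65-fold, and day 6 minus day 0 within the 3 slides was 0.56, 0.75 and 0.86. The call on day 2 was lost without replicate 1, 2 or 3 of 3c3 (0.63, 0.73 and 0.69) and that on day 4 without replicate 3 (0.59). In Cl19 it read 6.94, 6.82 and 6.88 on day 0 and 7.32, 6.88 and 6.85 on day 6, and these days overlapped. Its difference from day 0 in Cl19 was 0.27, 0.36 and 0.14 on days 2, 4 and 6, with adjusted p of 0.35, 0.12 and 0.57, and that of day 2 was 0.20 (adjusted p = 0.57) without the array near 3c3. The value of day 4 was called with the slide as a block (adjusted p = 0.042) and without Cl19 replicate 2 (0.60), and all of these days were called in the deposited values, which were not scaled between arrays (0.51, 0.67 and 0.51). Those values also gave larger rises in 3c3 (1.03 on day 4 and 1.08 on day 6). The change did not differ between lines on day 6 at the threshold (-0.59, adjusted p = 0.15), but did with the slide as a block (adjusted p = 0.047).

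*Rarb*, receptor β and itself a known retinoic acid target, was dim and above background on 17 of 26 arrays. In Cl19 it read 3.24, 3.53 and 3.04 on day 0, 2.68, 2.80 and 2.81 on day 2, 1.98, 2.86 and 1.82 on day 4, and 2.10, 2.51 and 2.74 on day 6. The 3c3 arrays read 3.61, 3.37 and 3.45 on day 0, 2.54, 2.74 and 2.35 on day 2, 2.51, 2.78 and 0.22 on day 4, and 3.12, 2.57 and 2.94 on day 6. Day 0 was the highest group of each line and did not overlap any later day of that line. This probe entered the tested probes through days 0 and 2 of Cl19 and day 0 of 3c3. In 3c3 that is the higher group alone, against which later days were tested. Limma called 1 of the 6 differences from day 0, in 3c3 on day 4 (-1.64 ± 0.43, adjusted p = 0.0056), where the slides gave -1.09, -0.59 and -3.23. This call rested on the array that read 0.22. That array had the highest median negative control signal of the 26 (20.92), and its lowest signal well above background was 3.90, above every *Rarb* value. Without 3c3 replicate 3 the difference was -0.84 and the call was lost. It was also lost with another background correction (normexp, -0.11), the deposited values (-0.67), dim values raised to the floor (-0.41) or the mean of both *Rarb* probes (-0.61). In Cl19 the differences were -0.51, -1.05 and -0.82 (adjusted p = 0.47, 0.052 and 0.12), with -0.46 on day 2 (adjusted p = 0.58) without the array near 3c3. That of day 4 was called with the slide as a block (adjusted p = 0.037), with scaling to the 75th percentile (-0.95), with the floor (-0.92), in a fit of Cl19 alone and without 3c3 replicate 2 or 3. Scaling to the 75th percentile also gave calls in Cl19 on day 6 (-0.68) and in 3c3 on day 2 (-1.01), and a smaller value in 3c3 on day 4 (-1.02). The day 6 value of Cl19 was called in a fit of that line alone and without 3c3 replicate 3 too. The other *Rarb* probe went the opposite way in Cl19. It was above background on 7 arrays, all of them Cl19 on days 2 to 6, with means of 0.66, 2.45, 3.12 and 2.26 over the 4 days, and was at least 1.69-fold higher on day 4 than on day 0 (adjusted p = 0.0037). It entered the tested probes through day 4 of Cl19 alone, and with all probes tested the adjusted p was 0.0068. With the mean of both probes the changes in Cl19 were positive and not called (0.64, 0.71 and 0.39 on days 2, 4 and 6). The 2 probes thus gave no common direction for *Rarb* in Cl19.

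A probe described as the receptor γ, but not named *Rarg*, was chosen outside the rule after its values were seen. Its group means lay between 2.52 and 3.10 in both lines on all days, with no call between days by limma (lowest adjusted p = 0.47, on day 4 in Cl19), and primary cells read 4.67 and 4.25. That was 1.70 above Cl19 on day 6 (adjusted p = 0.0031) and, with 2 of 3 arrays of 3c3 above background on day 6, at least 2.48-fold above that group (adjusted p = 0.0018).

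*Rxra*, the retinoid X receptor α that partners the other receptors, was called higher on days 4 and 6 in Cl19 and on no day in 3c3. In Cl19 it read 5.89, 5.71 and 6.08 on day 0, 5.37, 6.41 and 6.49 on day 2, 7.26, 6.35 and 7.24 on day 4, and 7.16, 6.77 and 6.68 on day 6. All arrays of days 4 and 6 lay above those of day 0, and the low value of day 2 was the array that lay near 3c3. The level was 1.05 ± 0.29 higher on day 4 (2.08-fold, adjusted p = 0.0058) and 0.98 higher on day 6 (1.97-fold, adjusted p = 0.0086), and within slides 1.27, 1.05 and 0.60 higher on day 6. With normexp correction these changes were smaller, 0.61 and 0.54. On day 2 the difference was 0.20 (adjusted p = 0.72), and 0.56 (adjusted p = 0.17) without that array. In 3c3 it read 5.79, 5.66 and 5.69 on day 0, 5.87, 5.26 and 5.50 on day 2, 5.54, 5.0 and 5.75 on day 4, and 6.24, 5.63 and 6.29 on day 6. These days overlapped, and none of the differences of -0.17, -0.28 and 0.34 was called by limma. The change to day 4 differed between lines by 1.34 ± 0.41 (adjusted p = 0.035), a call that was lost with no filter on dim probes (1.34) and without replicate 1 or 3 of Cl19 (1.18 and 1.29) or replicate 1, 2 or 3 of 3c3 (1.36, 1.15 and 1.51). On day 6 the lines differed by 0.64 (adjusted p = 0.37).

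*Crabp2*, which binds retinoic acid and can carry it to the nucleus, rose in both lines. In Cl19 it read 8.05, 7.62 and 7.96 on day 0, 8.39, 8.50 and 9.35 on day 2, 9.23, 9.29 and 9.39 on day 4, and 9.64, 11.55 and 10.39 on day 6. The arrays of 3c3 gave 7.93, 7.43 and 8.07 on day 0, 8.68, 8.01 and 8.61 on day 2, 8.94, 8.35 and 9.03 on day 4, and 9.96, 9.14 and 9.35 on day 6. In each line the 3 arrays of day 6 lay above the arrays of all other days, while days 2 and 4 overlapped, as did days 0 and 2 in 3c3. On day 6 the level was 2.65 ± 0.36 higher in Cl19 (6.26-fold, adjusted p = 5.1e-06) and 1.67 higher in 3c3 (3.19-fold, adjusted p = 8.4e-04), within slides 1.59, 3.92 and 2.43 in Cl19 and 2.03, 1.71 and 1.28 in 3c3. On day 4 it was 1.42 higher in Cl19 (adjusted p = 0.0032) and 0.96 higher in 3c3 (adjusted p = 0.044). The latter call was lost with normexp correction (0.82), with no filter (0.96) and in most fits without 1 replicate (0.94 to 0.98). On day 2 the difference was 0.87 in Cl19 (adjusted p = 0.098, and 0.050 and called with the slide as a block, as in the deposited values with 1.09), or 1.05 (adjusted p = 0.070) without the array near 3c3, and 0.62 in 3c3 (adjusted p = 0.27). The change did not pass the test of a difference between lines on day 6 (0.97, adjusted p = 0.24).

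*Crabp1*, the other cellular retinoic acid binding protein, went from below background to measured in Cl19. There it read 0.24, 0.21 and 0.23 on day 0, 0.21, 5.04 and 3.31 on day 2, 2.76, 3.93 and 3.59 on day 4, and 4.01, 4.86 and 6.18 on day 6. It was above background on none of the 3 arrays of day 0, on 2 of day 2, and on all of days 4 and 6. The day 2 array without signal was again the one near 3c3. The level was at least 1.41-fold higher on day 2 (2.63, adjusted p = 0.023), at least 2.09-fold higher on day 4 (3.20, adjusted p = 0.0028) and at least 6.31-fold higher on day 6 (4.79 ± 0.81, adjusted p = 5.0e-05), and on day 6 higher on 3 of 3 slides (3.78, 4.64 and 5.95). It entered the tested probes through days 4 and 6 of Cl19 alone, the groups then tested as higher. With all probes tested these changes were called too (adjusted p = 0.040, 0.0051 and 1.0e-04). Without the array near 3c3 the value of day 2 was 3.95 (adjusted p = 8.2e-05). The call of day 2 was lost without Cl19 replicate 2 (1.53) or 3 (2.40) and in a fit of Cl19 alone, and those of days 2 and 4 with normexp correction (0.37 and 0.32) and with dim values raised to the floor (1.25 and 1.07). The value of day 6 was smaller but called in both (0.77 and 2.66). In 3c3 it lay between 0.18 and 0.25 on days 0 to 4, and read 2.71, 1.71 and 0.26 on day 6, above background on 1 array. The array that read 0.26 was replicate 3, whose lowest signal well above background was 4.20, above all *Crabp1* values of 3c3. On day 6 of 3c3 the same array was the one below background for *Rbp2*, *Cyp26b1* and *Bcmo1*. For *Crabp1* the 3c3 difference of 1.33 on day 6 was not called (adjusted p = 0.19), but was without Cl19 replicate 1 and in a fit of each line alone. The change to day 6 differed between lines by 3.46 ± 1.14 (adjusted p = 0.041, and 0.017 with the slide as a block). With normexp correction it was 0.65 and called. It missed the threshold with scaling to the 75th percentile (3.35), the deposited values (3.37), no filter (3.46), the floor (2.33), and without Cl19 replicate 3 (2.88) or 3c3 replicate 1, 2 or 3 (4.05, 3.54 and 2.80). On day 4 the difference between lines of 3.23 had an adjusted p of 0.066, and of 0.029 with the slide as a block, and it was called without Cl19 replicate 1 (3.57) and without the array near 3c3 (3.23, adjusted p = 0.0062).

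*Aldh1a1*, a retinaldehyde dehydrogenase that makes retinoic acid, had its highest mean on day 2 in both lines. In Cl19 it read 3.75, 4.08 and 4.15 on day 0, 6.32, 6.44 and 5.80 on day 2, 5.04, 4.54 and 4.37 on day 4, and 5.20, 5.26 and 4.79 on day 6. Line 3c3 had 2.10, 3.03 and 2.91 on day 0, above background on 1 of 3 arrays, then 6.73, 6.61 and 6.35 on day 2, 5.66, 5.25 and 5.46 on day 4, and 3.55, 6.51 and 6.29 on day 6. Day 0 lay below every later day in both lines, day 2 lay above days 4 and 6 in Cl19, and day 6 of 3c3 spread widely because of 1 low array. On day 2 the rise was 2.19 ± 0.53 in Cl19 (4.57-fold, adjusted p = 0.0050) and 3.89 in 3c3 (at least 12.9-fold, adjusted p = 2.7e-05), within slides 2.57, 2.36 and 1.65 in Cl19 and 4.63, 3.59 and 3.44 in 3c3. Without the array near 3c3 the Cl19 value was 2.12 (adjusted p = 0.014), and its call was lost without Cl19 replicate 1 (2.00) or 2 (2.11). In 3c3 the level was at least 5.96-fold higher on day 4 (2.77, adjusted p = 4.3e-04) and at least 5.93-fold higher on day 6 (2.77, adjusted p = 2.5e-04). With normexp correction the called changes were smaller, 0.81 in Cl19 on day 2 and 1.26, 0.69 and 0.79 in 3c3 on days 2, 4 and 6. In Cl19 the differences of 0.65 on day 4 and 1.09 on day 6 were not called (adjusted p = 0.34 and 0.094). The former was called in a fit of Cl19 alone, and the latter with scaling to the 75th percentile (1.27), with the deposited values (1.59), in that fit and without 3c3 replicate 1. Limma called no difference between lines for its change on day 2 (-1.70), day 4 (-2.12) or day 6 (-1.68), with adjusted p of 0.60, 0.067 and 0.15. Without 3c3 replicate 1, the replicate with the low array, the differences of day 4 (-1.73) and day 6 (-2.34) were called.

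*Stra6*, the retinol uptake receptor, fell in both lines. In Cl19 it read 8.21, 8.12 and 8.17 on day 0, 7.38, 6.65 and 6.69 on day 2, 3.64, 2.67 and 2.77 on day 4, and 0.49, 1.1 and 1.96 on day 6, when it was above background on none of 3 arrays. The 3c3 values were 7.36, 7.13 and 7.12 on day 0, 7.41, 7.29 and 7.20 on day 2, 6.47, 6.34 and 5.77 on day 4, and 4.57, 4.19 and 4.75 on day 6. In Cl19 no day overlapped another, whereas in 3c3 days 0 and 2 overlapped and days 4 and 6 lay apart below them. Ordered by mean, the level was highest in Cl19 on day 0, then in 3c3 on days 2 and 0 and Cl19 on day 2, whose ranges overlapped. It was lower in 3c3 on day 4, then in 3c3 on day 6 and in Cl19 on day 4, and lowest in Cl19 on day 6 and in primary cells (0.58 and 0.71), both below background. Against day 0 the change in Cl19 was -1.26 on day 2 (2.40-fold lower, adjusted p = 0.0051), -5.14 on day 4 (35.3-fold lower, adjusted p = 2.0e-10) and -6.99 on day 6 (at least 71.8-fold lower, adjusted p = 2.5e-12). Without the array near 3c3 the value of day 2 was -1.50 (adjusted p = 0.0021), and without Cl19 replicate 2 it was -1.16 and no longer called. In 3c3 the difference was 0.10 on day 2 (adjusted p = 0.89), then -1.01 on day 4 (2.02-fold lower, adjusted p = 0.013) and -2.70 on day 6 (6.51-fold lower, adjusted p = 7.8e-07). The call of day 4 in 3c3 was lost with the deposited values (-0.65) and without replicate 1, 2 or 3 of 3c3 (-1.07, -1.12 and -0.84). Within slides, day 6 minus day 0 was -7.73, -7.03 and -6.21 in Cl19 and -2.79, -2.94 and -2.37 in 3c3. Each Cl19 slide thus showed a larger fall than each 3c3 slide, and the change differed between lines by -4.13 ± 0.43 on day 4 (adjusted p = 3.8e-06) and -4.29 on day 6 (adjusted p = 1.3e-06). With normexp correction the falls were smaller but called (-2.20 and -2.32 in Cl19 and -0.57 and -1.25 in 3c3 on days 4 and 6), as were the differences between lines (-1.62 and -1.07). On day 2 that difference was -1.36 (adjusted p = 0.28), -1.60 (adjusted p = 0.053) without the array near 3c3, and called with normexp correction (-0.95) and without Cl19 replicate 1 (-1.58).

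Whether the lines differed in their course was tested as the difference of their changes from day 0. On day 2, 0 of 7 genes differed between lines by limma, against 0.323% of all probes. At an unadjusted p under 0.05 it was 3 of 7, and no share of all probes is given for that threshold. On day 4, 2 of 7 (*Rxra* and *Stra6*) differed against 14.4% of all probes, and on day 6, 2 of 7 (*Crabp1* and *Stra6*) against 17.4%. With the slide as a block there were 0, 3 and 3, against 178, 5042 and 6007 of all 24442 probes in that fit. Without the Cl19 array near 3c3, 1 of 7 differed on day 2, *Crabp1* (3.97, adjusted p = 0.0082), and the number of all probes called there was 856 in place of 79. Without Cl19 replicate 1, 2 of 7 differed on day 2, *Crabp1* (3.98) and *Stra6* (-1.58). The count of day 4 was 1 without Cl19 replicate 3 or 3c3 replicate 2 or 3, and so was that of day 6.

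Primary smooth muscle cells served as the control for the differentiated state. Against Cl19 on day 6, 4 of 7 genes were lower in primary cells and 0 higher, against 71.4% of all probes called in either direction. Against 3c3 on day 6, 3 of 7 were lower and 0 higher, against 71.5%. Against day 0, 5 of 7 differed from Cl19 (2 higher, 3 lower) with 72.7% of all probes, and 6 of 7 from 3c3 (3 higher, 3 lower) with 73.1%. The members' share was thus below that of all probes in both comparisons with day 6, near it against Cl19 on day 0 and above it against 3c3 on day 0. The day 0 counts include *Crabp1*, with both groups below background, and *Rarb* and in 3c3 *Aldh1a1*, with a bound under 1. *Rarb* is in the day 6 counts too. After raising dim values to the floor, limma called *Rarb* (1.18, adjusted p = 0.0098) and *Stra6* (1.77, adjusted p = 3.6e-05) higher than in Cl19 on day 6. *Stra6* lay below background in both of these groups. *Crabp1* was then no longer called against Cl19 on day 6 (-1.24), nor *Rarb* against 3c3 on day 6 (0.48). The direction of the day 6 counts thus rests in part on signals below background. With dim values raised to the floor, 2 of 7 differed from Cl19 and 3 of 7 from 3c3 on day 0, with no share of all probes given for that setting. The shares on day 0 thus rest on calls made below background. Medians on day 6 were -1.91 against Cl19 and -0.87 against 3c3, where all probes had -0.13. Without primary replicate 1, 3 of 7 differed from either line on day 0. All primary arrays lay on 1 slide without lines, so these comparisons are between slides. With the replicate number within the lines as a block, and none for the primary arrays, the counts were 5 and 4 on day 6 and 5 and 7 on day 0, in the order of Cl19 and 3c3. In the same order, that fit called 18965 and 19056 of all 24442 probes on day 6 and 19244 and 19301 on day 0.

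By gene, *Stra6* in primary cells was at least 21.1-fold lower than in Cl19 on day 0 (adjusted p = 1.9e-13) and at least 1.66-fold lower than in 3c3 on day 6 (adjusted p = 4.8e-09). It lay below background there, as in Cl19 on day 6, so no fold was formed between those groups. *Aldh1a1* read 0.16 and 1.64 in primary cells, below background, and was at least 2.48-fold lower than in Cl19 (adjusted p = 3.3e-06) and at least 3.19-fold lower than in 3c3 (adjusted p = 1.1e-06) on day 6. It was at least 1.17-fold lower than in Cl19 on day 0 (adjusted p = 1.1e-04), a call lost with normexp correction (-0.20) and the floor (-0.22). Its call against 3c3 on day 0 (-1.78, adjusted p = 0.011) had a bound under 1 and was lost with scaling to the 75th percentile (-0.23) and without primary replicate 1 (-1.04), and its sign changed with the floor (0.89) and normexp correction (0.01). *Crabp2* read 8.58 and 8.66, between day 0 and day 6 of both lines. It was 3.75-fold lower than in Cl19 on day 6 (-1.91, adjusted p = 3.4e-04), while the difference from 3c3 on day 6 of -0.87 had an adjusted p of 0.064, and of 0.037 with that block within the lines. It was also called with scaling to the 75th percentile (-0.90), with the deposited values (-3.20) and without Cl19 replicate 1 or 2 (-0.87) or 3c3 replicate 2 (-1.04). Its difference from 3c3 on day 0 was 0.81 (adjusted p = 0.082, or 0.050 and called with that block), with -1.23 in the deposited values. *Crabp1* read 2.70 and 1.82, below background, and was at least 2.37-fold lower than in Cl19 on day 6 (adjusted p = 0.010). That call was lost with scaling to the 75th percentile (-2.03), with the floor (-1.24), without Cl19 replicate 3 (-2.17) and without primary replicate 2 (-2.31). Against day 0 both groups lay below background, so no fold was formed, and the calls (2.03 and 2.03, adjusted p = 0.049 and 0.049) were lost in most fits without 1 replicate (1.59 to 2.48). *Rarb* read 0.23 and 0.21, below background, and entered the tested probes only through groups of the lines in which it was high. It was called lower in each of the 4 comparisons, though each bound was under 1. Each difference turned positive with dim values raised to the floor (0.30 to 1.18), and that from Cl19 on day 6 was then called higher (1.18, adjusted p = 0.0098). The lower call against Cl19 on day 6 was also lost with scaling to the 75th percentile (-0.40) and normexp correction (-0.11).

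*Rara* read 7.54 and 7.40 in primary cells, 0.90 above 3c3 on day 0 (1.87-fold, adjusted p = 6.8e-04), with -1.05 in the deposited values. It was 0.59 above Cl19 on day 0 (adjusted p = 0.016), a call lost without primary replicate 1 (0.52) and a direction that the deposited values turned (-1.44). On day 6 it differed by 0.45 from Cl19 (adjusted p = 0.059, or 0.018 with the block within the lines, and called at 0.60 without Cl19 replicate 1) and by 0.18 from 3c3 (adjusted p = 0.46), and both turned negative with the deposited values (-1.95 and -2.13). *Rxra* read 6.62 and 6.50, which lay above all day 0 arrays of both lines and below all day 6 arrays of Cl19. Its difference from Cl19 on day 6 of -0.31 (adjusted p = 0.40) was called in the deposited values alone (-2.67). Its difference from Cl19 on day 0 of 0.66 (adjusted p = 0.076) was called with normexp correction (0.43) and without the array near 3c3 (adjusted p = 0.039). Its difference from 3c3 on day 0 of 0.84 (adjusted p = 0.026) was lost without 3c3 replicate 1 or 3 (0.88 and 0.83) or either primary array (0.78 and 0.90) and was -1.02 with the deposited values. The deposited values had not been scaled between arrays, and in them the median difference over all probes was -2.17 between primary cells and Cl19 on day 6.

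For each tested gene, the 2 named genes with the most similar course were sought among all tested probes by Pearson correlation over the 24 rMAPC arrays, which share slides, lines and days. *Stra6* ran closest to *Lipg* (r = 0.98), which went from 10.75 to 2.42 in Cl19 and from 9.89 to 7.13 in 3c3 between days 0 and 6. Next was *Galnt7* (r = 0.97), from 6.35 to 1.41 and from 6.01 to 3.20. These genes also ended lower in Cl19 than in 3c3. *Crabp1* ran closest to *Gnat2* (r = 0.97), from 0.39 to 9.42 in Cl19 and from 0.28 to 1.45 in 3c3, and to *Prkx* (r = 0.96). *Crabp2* ran closest to *Col7a1* (r = 0.95), from 2.82 to 8.40 and from 3.03 to 5.42, and to *Tcp11* (r = 0.93). For *Rxra* these were *Tp53i11* (0.95) and *Tjp1* (0.94), and for *Aldh1a1* they were *Sesn1* (0.91) and *Slc40a1* (0.89), the iron exporter ferroportin, which went from 5.52 to 7.53 in Cl19 and from 3.87 to 7.78 in 3c3. For *Rara* they were *Sppl3* (0.89) and *Ctsa* (0.87), and for the dim *Rarb* they were *Trim2* (0.83) and *Ythdc2* (0.82).

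Other genes of the retinoid pathway were read from 6 lists by the same probe rule. Of 7 tested carriers and binding proteins, 4 were higher and 1 lower on day 6 in Cl19 and 4 and 0 in 3c3, with median changes of 2.06 and 1.71. Of 11 tested retinol and retinal enzymes, 4 were higher and 2 lower in Cl19 and 3 and 2 in 3c3, with medians of -0.04 and -0.09. Both tested retinoic acid hydroxylases were higher in both lines. Of 7 other receptors, 3 were higher and 1 lower in Cl19, and 3 and 0 in 3c3. Of 13 coregulators, 2 were higher and 3 lower in Cl19 and 2 and 1 in 3c3. Of 15 retinoic acid responsive genes, 5 were higher and 6 lower in Cl19 and 3 and 3 in 3c3, with medians of -0.68 and 0.19. The shares of all tested probes were 22.0% up and 30.3% down for Cl19 and 19.7% up and 28.6% down for 3c3.

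*Rbp4*, the retinol carrier of blood, read 3.14, 2.22 and 2.92 on day 0 in Cl19, 7.49, 8.97 and 10.25 on day 2, 12.47, 10.75 and 11.17 on day 4, and 9.93, 9.42 and 9.13 on day 6. In 3c3 it read 1.18, 1.25 and 1.77 on day 0, below background, then 7.98, 7.52 and 7.70, 6.68, 7.80 and 6.95, and 6.07, 6.46 and 6.98 on days 2, 4 and 6. All later days lay far above day 0 in both lines. On day 6 it was at least 106-fold higher in Cl19 (adjusted p = 3.7e-09), with 2 of 3 day 0 arrays above background, while 3c3 had at least 14.2-fold more (adjusted p = 2.4e-07), and the lines differed on day 4 (2.96, adjusted p = 0.0097) but not at the threshold on day 2 (-0.19, adjusted p = 1.0) or day 6 (1.63, adjusted p = 0.16). These sizes are not exact, since 3c3 lay below background on day 0, and with dim values raised to the floor they were 4.23 on day 4 and 2.90 on day 6, both called (adjusted p = 5.8e-04 and 0.0090). *Rbp4* entered the tested probes through days 2 to 6 of both lines, and with all probes tested the adjusted p of day 6 was 9.6e-09 in Cl19 and 5.5e-07 in 3c3. *Ttr*, which carries RBP4 in blood, went from 3.46, 3.21 and 3.62 to 9.72, 8.95 and 12.11 in Cl19 and from 4.78, 3.89 and 3.55 to 11.83, 11.66 and 12.40 in 3c3. It was 6.83 higher in Cl19 (adjusted p = 2.6e-06) and 7.89 higher in 3c3 (adjusted p = 7.2e-07). *Ttr* is also 1 of the 6 visceral endoderm or hepatocyte markers, whose mean rose beside it, with *Apob* the brightest in Cl19 (13.28) and *Apoa1* in 3c3 (12.41) on day 6 and *Alb* below background. The part of such cells in these values was not tested. In primary cells both *Rbp4* (3.19 and 3.73) and *Ttr* (0.16 and 1.86) lay below background, as did 5 of the 6 markers. *Rbp2*, a binding protein known from intestine, was below background on day 0 and at least 2.73-fold higher on day 6 in Cl19 (adjusted p = 0.0015), against at least 1.21-fold in 3c3 (adjusted p = 0.0074, above background on 2 of 3 arrays). It entered the tested probes through day 6 of Cl19 alone, and with all probes tested the adjusted p was 0.0028 in Cl19 and 0.013 in 3c3.

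*Cyp26a1*, the retinoic acid hydroxylase that is a textbook target of retinoic acid, read 11.63, 11.84 and 11.87 on day 0 in Cl19, 12.89, 15.41 and 15.59 on day 2, 15.40, 15.98 and 15.57 on day 4, and 15.55, 14.90 and 15.75 on day 6. In 3c3 it read 10.50, 10.35 and 10.33, then 13.11, 13.18 and 13.16, 13.43, 14.52 and 13.62, and 13.65, 11.99 and 13.07 on the 4 days. It was bright before treatment, rose by day 2 in both lines (2.85 in Cl19, adjusted p = 4.0e-04, or 3.72, adjusted p = 4.4e-07, without the array near 3c3, and 2.75 in 3c3, adjusted p = 6.7e-04) and lay below background in primary cells (3.15 and 3.47). On day 6 it was 12.3-fold higher in Cl19 (3.62 ± 0.51, adjusted p = 6.8e-06) and 5.71-fold higher in 3c3 (2.51 ± 0.51, adjusted p = 4.5e-04), and the lines did not differ at the threshold (1.11, adjusted p = 0.37). Primary cells were at least 3170-fold below Cl19 (adjusted p = 3.8e-13) and at least 561-fold below 3c3 (adjusted p = 1.2e-11) on day 6. *Cyp26b1* was at least 2.29-fold higher on day 6 in Cl19 (adjusted p = 4.4e-04) and at least 2.27-fold in 3c3 (adjusted p = 0.0023, above background on 2 of 3 arrays). It was higher still in primary cells, by 3.42 above Cl19 (adjusted p = 4.1e-07) and at least 7.21-fold above 3c3 (adjusted p = 1.3e-06). It was tested through Cl19 on days 2 to 6 and primary cells, and with all probes tested the adjusted p of day 6 was 8.1e-04 in Cl19 and 0.0041 in 3c3.

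Among the enzymes, *Dhrs3*, which reduces retinaldehyde to retinol, was called on day 6 in 3c3 and not in Cl19. In 3c3 it went from 6.45, 6.24 and 6.37 to 8.95, 10.11 and 10.21 between days 0 and 6 (10.6-fold higher, adjusted p = 2.2e-06), whereas Cl19 went from 6.71, 6.41 and 6.61 to 6.42, 6.31 and 6.88 (-0.04, adjusted p = 0.95). On day 4 Cl19 read 8.30, 6.77 and 6.89, all above day 0 (0.75, adjusted p = 0.16). Days 0 and 6 of 3c3 did not overlap and those of Cl19 did, and the change to day 6 differed between lines (-3.44, adjusted p = 3.6e-04). *Adh1*, an alcohol dehydrogenase that can oxidize retinol, rose mainly in Cl19, by at least 34.3-fold (adjusted p = 4.8e-08), against at least 1.28-fold in 3c3 (adjusted p = 0.024, above background on 1 of 3 arrays), with a difference of 5.13 (adjusted p = 6.6e-04). The size of that difference is not exact, since both lines lay below background on day 0. With dim values raised to the floor it was 4.28 (adjusted p = 6.2e-04). *Adh1* entered the tested probes through Cl19 on days 4 and 6 and primary cells. With all probes tested the adjusted p was 1.2e-07 in Cl19, 0.042 in 3c3 and 0.0013 between lines. *Bcmo1* was lower in both lines (-1.15 and -1.13, adjusted p = 0.040 and 0.047, above background on 2 of 3 arrays of 3c3 on day 6), and both calls were lost with all probes tested (adjusted p = 0.065 and 0.077). *Rdh10*, *Lrat* and *Aldh1a3* were not tested, and of these *Lrat* was above background on no array, and *Aldh1a3* on 2 of 3 Cl19 arrays of day 6.

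Of the other receptors, *Thra* rose from below background to means of 7.75 in Cl19 (at least 41.9-fold, adjusted p = 4.4e-08) and 5.57 in 3c3 (at least 7.35-fold, adjusted p = 6.7e-05), and the lines differed (2.52, adjusted p = 0.028). It entered the tested probes through days 2 to 6 of both lines and primary cells, and with all probes tested the adjusted p was 1.1e-07 in Cl19, 1.3e-04 in 3c3 and 0.049 between lines. *Pparg*, a partner of RXR, went from 8.13 to 1.97 in Cl19 (at least 59.9-fold lower, adjusted p = 6.3e-09, with 1 of 3 arrays of day 6 above background). In 3c3 its means were 6.94 on day 0, 5.98 on day 2 (-0.96, adjusted p = 0.21), 8.52 on day 4 (1.58, adjusted p = 0.018) and 6.99 on day 6 (0.05, adjusted p = 0.95). The lines differed by -6.21 on day 6 (adjusted p = 4.9e-06). *Rxrb* differed by 0.56 in Cl19 (adjusted p = 0.042, or 0.065 and not called with all probes tested) and by 0.46 in 3c3 (adjusted p = 0.098, or 0.031 with the slide as a block), and *Rxrg* was above background on 3 arrays and not tested. Among coregulators, *Nrip1* rose in Cl19 (2.10, adjusted p = 2.8e-06), while *Ncoa3* (-1.48, adjusted p = 1.4e-05) and *Tbl1xr1* (-1.47, adjusted p = 1.8e-05) fell there. The 3c3 values of these genes were 0.35, -0.34 and -0.12 (adjusted p = 0.31, 0.23 and 0.71), and the lines differed for each (adjusted p = 0.0033, 0.014 and 0.0049). Of the responsive genes, *Plat* rose by 6.97 and 6.59 (adjusted p = 6.9e-10 and 2.7e-09) and *Tgm2* by 3.76 and 5.65 (adjusted p = 4.7e-07 and 4.9e-09) in Cl19 and 3c3. Other genes of that list fell, since of 15 tested 6 were called lower and 5 higher in Cl19, and 3 and 3 in 3c3.

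**Figure D2:**
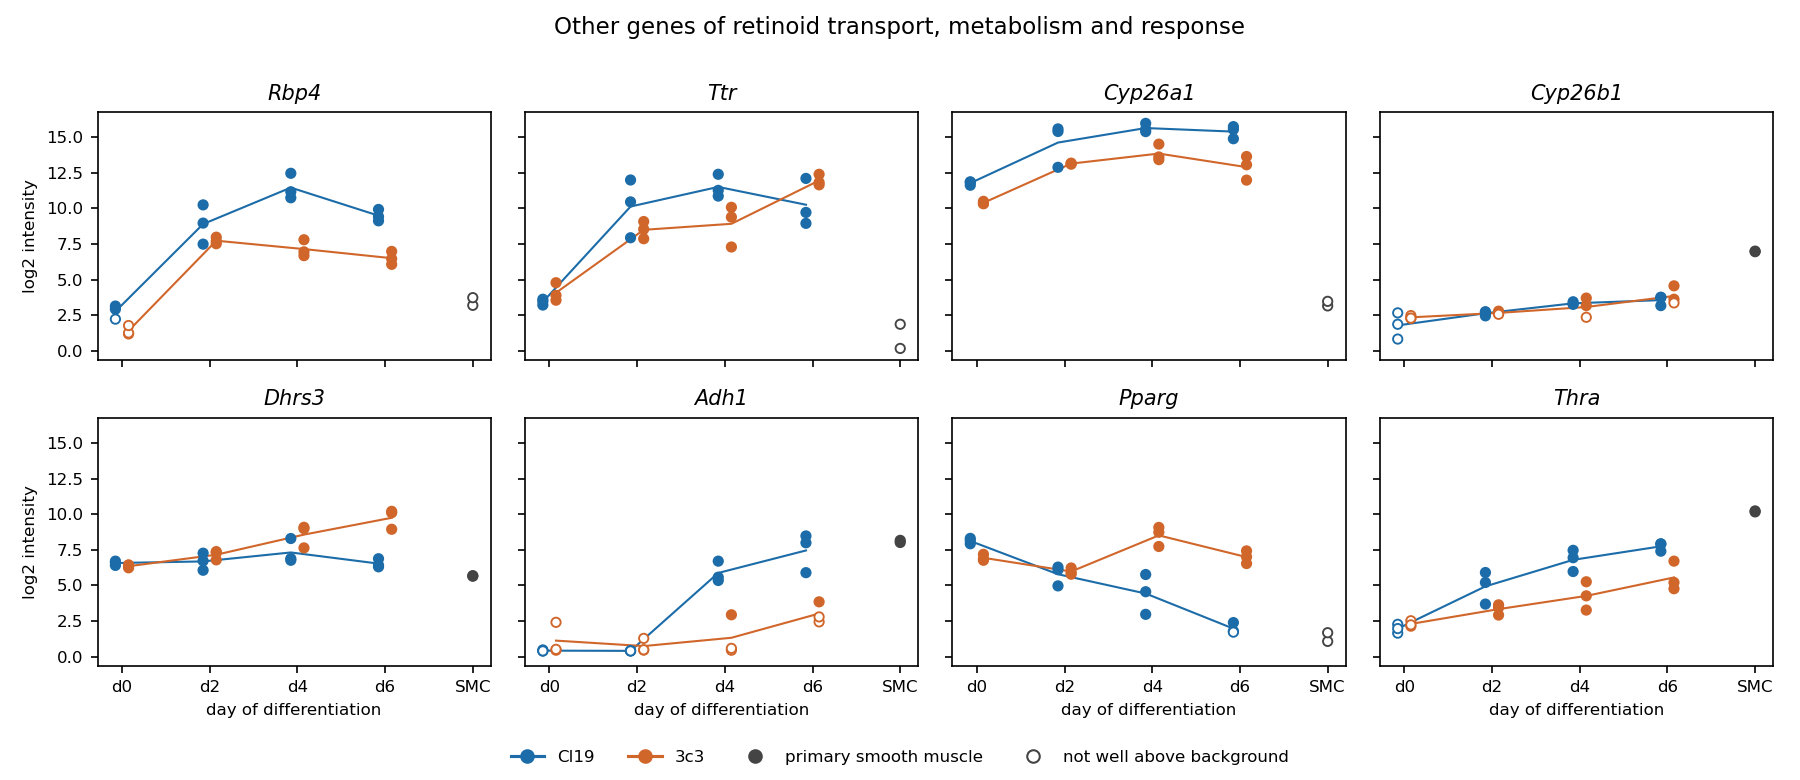
Log2 signal (vertical axis) of 8 further genes of retinoid transport, metabolism and receptor partners on each array by day of differentiation (horizontal axis) in both lines and primary smooth muscle cells. Points are arrays, open where not well above background, and lines join group means, such as 2.76 and 9.49 for *Rbp4* on days 0 and 6 of Cl19 and 8.13 and 1.97 for *Pparg*.

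Receptor dimers bind direct repeats of a half-site, so promoter windows were searched for the half-sites AGGTCA or AGTTCA or GGGTCA or GGTTCA repeated with 1, 2 or 5 bases between them (DR1, DR2 and DR5), on both strands and with overlaps allowed. The windows are 300 bases around a gene's start, most of them upstream, from RefSeq on the build GRCr8, and were found for 9 of 9 members. A DR5 occurred in 128 of 33469 windows (0.382%), a DR2 in 57 (0.17%) and a DR1 in 78 (0.233%). Among the members only *Rarb* held a match, a DR5 in the window chr15:11336142-11336441 on the + strand, and among the named pathway genes with a window only *Cyp26a1* did, a DR5 in chr1:244883572-244883871 on the + strand. That is the strand of the windows as printed, on which the *Rarb* match reads as the repeat, whereas that of *Cyp26a1* reads as the repeat on the opposite strand. Both windows are shown because both genes are known targets of retinoic acid, and capitals mark the 17 bases of each match.
Rarb: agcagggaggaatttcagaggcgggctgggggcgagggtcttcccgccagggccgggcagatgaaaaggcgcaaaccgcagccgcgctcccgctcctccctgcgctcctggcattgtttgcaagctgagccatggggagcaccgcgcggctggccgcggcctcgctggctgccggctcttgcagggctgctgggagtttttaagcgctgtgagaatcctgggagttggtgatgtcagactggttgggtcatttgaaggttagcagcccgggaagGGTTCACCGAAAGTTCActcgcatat
Cyp26a1: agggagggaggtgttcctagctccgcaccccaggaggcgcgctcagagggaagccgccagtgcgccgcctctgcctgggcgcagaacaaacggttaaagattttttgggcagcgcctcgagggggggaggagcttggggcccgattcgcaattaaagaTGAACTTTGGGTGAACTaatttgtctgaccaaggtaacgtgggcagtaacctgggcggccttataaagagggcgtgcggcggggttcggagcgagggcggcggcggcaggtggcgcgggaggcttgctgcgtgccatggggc
In these letters the *Rarb* match began 25 bases after the gene's start and that of *Cyp26a1* at position -92 from it. A match is a description of these letters only.

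Scaling moved the change of a typical probe. With quantile normalization the median change of all probes on day 6 was -0.20 in Cl19 and -0.21 in 3c3, in the deposited values it was 0.10 and 0.09, and with normexp correction it was -0.06 in both. On day 2 it was -0.07 in both against 0.09 and 0.16 in the deposited values, and on day 4 -0.16 in both against 0.04 and 0.19. Between primary cells and Cl19 or 3c3 on day 6 it was -0.13, and 0.21 with scaling to the 75th percentile. Of the probes called on day 6, 42.1% were higher in Cl19 and 40.7% in 3c3, and in the deposited values 55.7% and 56.4%. On day 2 these shares were 49.3% and 51.4% against 64.9% and 78.1%, and on day 4 they were 42.7% and 40.0% against 53.4% and 66.9%. The difference between lines on days 2 and 4 had shares of 43.0% and 47.5% higher, against 26.8% and 35.2% in the deposited values, and on day 2 27.7% with normexp correction. For primary cells the share was 45.9% against Cl19 and 46.7% against 3c3 on day 6, with 8.3% and 9.5% in the deposited values, and 43.0% and 43.1% on day 0, with 12.7% and 13.5%. No called change between days of the 7 genes turned its direction under any setting.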

How the data were processed

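RNA of 26 samples in 9 groups was measured on 1-color Agilent arrays. The authors labeled it with Cy3 and quantified each array with Agilent Feature Extraction 10.1.1.1, whose deposited signal intensity is corrected for background, with substitute values for dim features. The deposited series values equal the log2 of that intensity and are not normalized between arrays.

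Here log2 intensities of 41012 gene probes (control features left out, repeated features averaged) were quantile normalized, and 24442 probes well above background on all arrays of at least 1 group were fitted with limma 3.58.1 (R 4.3.3), with Benjamini-Hochberg adjustment over all of them and 1 fit of 9 groups. Figures and promoter searches used Python 3.11.15. Scripts were tested on simulated data.

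The members and lists were chosen with earlier results of these data known. Named beyond the members were the 3 genes of each pathway list with the largest change on day 6, averaged over both lines, among those called in at least 1 line, genes listed by name whatever their values, and the 2 genes closest in course to each tested member. Not all genes that this rule gave are printed. The probe for receptor γ was found by its description and chosen after its values were seen.

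The 4 days of a replicate share a slide, so the replicate number within a line was tried as a block. Deviations from group means of arrays with the same number correlated above 0.1 for 18 of 18 pairs in 3c3 (median 0.41) and 16 of 18 in Cl19 (lowest 0.06, median 0.33). Other alternatives were scaling to the 75th percentile, the deposited values, normexp correction with an offset of 50, no filter, a floor for dim values, a fit per line, the mean over a gene's probes, each replicate left out, the array near 3c3 left out, and the methods' area method and t-test.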

Additional observations from a re-analysis of the deposited data

Results flagged for a closer look

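In 3 genes the change from day 0 differed between the lines by the test of the difference itself, limma with adjustment over all tested probes. On day 4 *Rxra* differed by 1.34 (adjusted p = 0.035) and *Stra6* by -4.13 (adjusted p = 3.8e-06), both as the change in Cl19 minus that in 3c3. On day 6 *Crabp1* differed by 3.46 (adjusted p = 0.041) and *Stra6* by -4.29 (adjusted p = 1.3e-06). The *Rxra* call was lost with no filter on dim probes and in 5 of the 6 fits without 1 replicate of a line. The *Crabp1* call was lost in 4 of those 6, and with scaling to the 75th percentile, the deposited values, the floor and no filter. Both calls of *Stra6* were kept in every setting that tests a difference between lines. *Crabp1* was below background on day 0 in both lines and on 2 of 3 arrays of 3c3 on day 6, and *Stra6* in Cl19 on day 6, so the sizes on day 6 are not exact. With dim values raised to the floor they were 2.33 (adjusted p = 0.088) and -3.46 (adjusted p = 3.7e-06). *Crabp1* entered the tested probes through days 4 and 6 of Cl19 alone, and with all probes tested its adjusted p was 0.070.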

How the results depend on the processing

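Over all settings, 1352 values of single genes were called in the same direction as before or in neither fit, 80 were no longer called, 49 became called and 17 changed sign with a call in at least 1 fit. Of the 1352, 18 changed sign with no call in either fit. Of the counts, those called on day 2 in Cl19 ranged from 0 to 3 and in 3c3 from 1 to 2 when 1 replicate was left out, on day 4 in 3c3 from 1 to 5, over time in Cl19 from 3 to 6 and in 3c3 from 2 to 5. The counts that differed between lines ranged from 0 to 2 on day 2, 1 to 3 on day 4 and 1 to 2 on day 6, and those of primary cells from 3 to 6 against Cl19 and 3 to 7 against 3c3 on day 0. With 1 primary array left, that array was assumed to vary like the other groups.

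With the deposited values, 5 genes were called on day 2 in Cl19, 3 on day 4 in 3c3, 1 between lines on day 6, and 7 and 6 between primary cells and Cl19 or 3c3 on day 6. With normexp correction 3 were called on day 4 in 3c3 (of all probes 3370 higher and 5560 lower) and 1 between lines on day 2 (39 and 102). With no filter 1 was called between lines on day 4 and 1 on day 6, and with scaling to the 75th percentile 1 on day 6 (of all probes 1785 higher and 2178 lower). With the floor it was 1 between lines on day 6, and 2 and 3 between primary cells and Cl19 or 3c3 on day 0. The area method called 2 in Cl19 and 1 in 3c3. The methods' t-test on day 6 found 6 of 7 genes in Cl19, 5 after adjustment, and 5 and 3 in 3c3. For no filter, the floor, the area method and the t-test no share of all probes is given, so their counts are not set against one. The cause of the differing counts was not tested.

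The replicate block (the slide within a line) called 4, 6 and 4 genes on days 2, 4 and 6 in Cl19, 2, 5 and 4 in 3c3, 0, 3 and 3 between lines, and 5 over time in each line. Of all 24442 probes, the same fit called 7917, 13941 and 15089 in Cl19 and 6937, 11851 and 14307 in 3c3. Between lines it called 178, 5042 and 6007, and over time 16246 in Cl19 and 15682 in 3c3. Among the 7 tested genes it added 8 calls, named beside their values, and lost 0. The number of all probes that differed between lines on day 2 was 178 with it, 141 with normexp correction and 856 without the array near 3c3, against 79.

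The 17 sign changes with a call all lay in comparisons with primary cells. Of the 18 without a call, 17 lay between days or lines, among them *Rarb* in Cl19 with the mean of both probes (0.64, 0.71 and 0.39 on days 2, 4 and 6). The deposited values gave for *Rara* -1.95, -1.44, -2.13 and -1.05 against Cl19 on days 6 and 0 and 3c3 on days 6 and 0. They gave for *Rxra* -1.29 against Cl19 on day 0 and -1.75 and -1.02 against 3c3 on days 6 and 0, and for *Crabp2* -1.37 and -1.23 against day 0 of Cl19 and 3c3. The floor gave for *Rarb* 1.18, 0.50, 0.48 and 0.30 in the order used for *Rara*, for *Aldh1a1* 0.89 against 3c3 on day 0 and for *Stra6* 1.77 against Cl19 on day 6. Normexp gave for *Aldh1a1* 0.01 against 3c3 on day 0, and scaling to the 75th percentile gave for *Stra6* 1.15 against Cl19 on day 6. The deposited values lack scaling between arrays and the floor replaces signals below background; other causes were not tested. Signals below background limit *Rarb*, *Crabp1*, *Aldh1a1* and *Stra6* in primary cells, and 26 arrays limit the precision of all values.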
